A study of Mus musculus with 8 samples.

Results

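Secreted Wnt antagonists were examined as a set of 10 genes chosen by symbol, Wif1, Dkk1, Dkk2, Dkk3, Dkk4, Sfrp1, Sfrp2, Sfrp4, Sfrp5 and Frzb. All 10 were found among the 27551 genes of the array, on 12 of its 41174 probes, because Dkk1 and Sfrp1 each had 2 probes. RNA came from salivary gland tumours of mice, which AKT, a growth-promoting kinase activated by PI3K, had induced, and from normal salivary glands, and was hybridised to 8 one-colour Agilent whole-genome arrays. Tumours were untreated (n = 2) or had received rapamycin for 3 days (n = 1) or 14 days (n = 2), and the normal groups were untreated parotid gland (n = 2) and untreated submandibular gland (n = 1). Rapamycin is an inhibitor of the mTOR kinase, which acts downstream of AKT. The labels state neither strain, age, rapamycin dose nor how AKT was expressed, nor whether the arrays of 1 group represent different animals. The p-values therefore measure only the spread between these samples, which may be technical, and the single day 3 and submandibular arrays have no replicate check.

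Wnt proteins are secreted signals that bind a Frizzled receptor together with the co-receptor Lrp5 or Lrp6, which stabilises beta-catenin and switches on target genes through TCF/LEF factors. Secreted antagonists act outside the cell. Wif1, the Sfrp proteins and Frzb bind Wnt proteins themselves, whereas Dkk1, Dkk2 and Dkk4 bind the co-receptors, often together with a Kremen protein. Dkk3 belongs to the same family by sequence, but its action on Wnt signalling is less settled. Several antagonists, Dkk1 and Dkk4 among them, are known in other tissues as target genes of the pathway that they restrain.

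The upstream promoters of 3 antagonists are shown because Wif1 and Dkk2 differed most between untreated tumour and both glands or day 14, while Dkk1, known as a target of the pathway, was not well above background on most arrays. Each is the 250 bases before the RefSeq transcription start on GRCm38.p6, written 5′ to 3′ on the strand of the gene. Wif1 is at chr10:121033754-121034003 on the plus strand, Dkk2 at chr3:132085042-132085291 on the plus strand and Dkk1 at chr19:30549497-30549746 on the minus strand. Capitals mark letters of 2 motifs searched on both strands, the TCF/LEF core (CAAAG preceded by any pair made of A and T) and the TATA box (TATAAA). The TATA box was added to the search after the sequences had been seen.
Wif1: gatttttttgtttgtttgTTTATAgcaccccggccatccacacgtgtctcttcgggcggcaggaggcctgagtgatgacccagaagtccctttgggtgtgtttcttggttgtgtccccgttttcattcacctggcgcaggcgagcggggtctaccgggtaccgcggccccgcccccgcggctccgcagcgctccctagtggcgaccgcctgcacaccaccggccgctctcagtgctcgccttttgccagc
Dkk2: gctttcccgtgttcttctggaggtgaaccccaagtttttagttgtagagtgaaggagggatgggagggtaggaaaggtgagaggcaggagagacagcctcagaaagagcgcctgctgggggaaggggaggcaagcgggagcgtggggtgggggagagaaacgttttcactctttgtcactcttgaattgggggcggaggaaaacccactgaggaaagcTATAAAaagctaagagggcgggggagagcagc
Dkk1: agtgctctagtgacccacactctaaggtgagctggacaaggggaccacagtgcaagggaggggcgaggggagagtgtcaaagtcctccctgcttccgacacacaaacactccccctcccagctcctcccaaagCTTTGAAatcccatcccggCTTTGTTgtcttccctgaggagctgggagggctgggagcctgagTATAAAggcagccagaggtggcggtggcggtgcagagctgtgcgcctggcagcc
RefSeq promoter entries were found for 6 of the 10 genes (Wif1, Dkk1, Dkk2, Sfrp2, Sfrp5 and Frzb). Among these the TCF/LEF core was present in Dkk1 only, on the minus strand of the promoter as written, first as CTTTGAA at position -117 and again as CTTTGTT at position -98 before the start. The core was found in 16.88% of all 32851 promoters of the same length, 300 bases with 50 of them after the start. The TATA box was found in Dkk1 at position -54, in Dkk2 at position -32 and, on the opposite strand as TTTATA, in Wif1 at position -232, against 13.62% of all promoters. These matches describe letters in a short window and were not tested for binding.

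Signal is given as the log2 of the processed intensity of a probe minus the log2 of the 75th percentile on the same array, so that 0 is the brightness of a probe at that percentile. The 75th percentile was 966 and 972 intensity units on the untreated tumour arrays, 730 on the day 3 array, 177 and 236 at day 14, 384 and 145 in parotid and 277 in submandibular gland. Between 43.2% and 58.4% of spots were well above background, which is the call of the scanner software that a spot exceeds its local background. Below background and dim mean here that this call was not made, whatever the processed intensity. The untreated tumours lay on the first of 2 slides and the day 3 and submandibular arrays on the second, while parotid and day 14 had an array on each. The day 3 array had 791 spots called non-uniform, against 5 to 51 on the other arrays. Untreated tumours held little signal of the 12 acinar secretory genes, with summed signals of 75 and 133 times the 75th percentile, against 5610 and 12350 in parotid and 2869 in submandibular gland. The 12 duct epithelium markers summed to 554 and 759 in untreated tumour, against 301 and 558 in parotid and 620 in submandibular gland.

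Detection of the antagonists is set beside that of all genes. Well above background on every array of the group were 6 of 10 antagonists in untreated tumour (Wif1, Dkk2, Dkk3, Dkk4, Sfrp2 and Sfrp4), and all 10 were so on at least 1 of the 2 tumour arrays. Of all genes, 54.7% were well above background on every untreated tumour array and 59.4% on at least 1. In the day 3 tumour 6 of 10 were well above background, and at day 14 it was 4 of 10 on both arrays and 6 of 10 on at least 1, against 49.4% and 54.2% of all genes. Both parotid arrays detected 3 of 10 (Sfrp1, Sfrp2 and Sfrp4), and the same 3 were detected in submandibular gland. Of all genes, 52.0% were so in the day 3 tumour, 45.6% on both parotid arrays and 45.4% in submandibular gland. In whole tissue RNA, fewer cells of a type and less RNA per cell cannot be told apart.

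**Figure D1:**
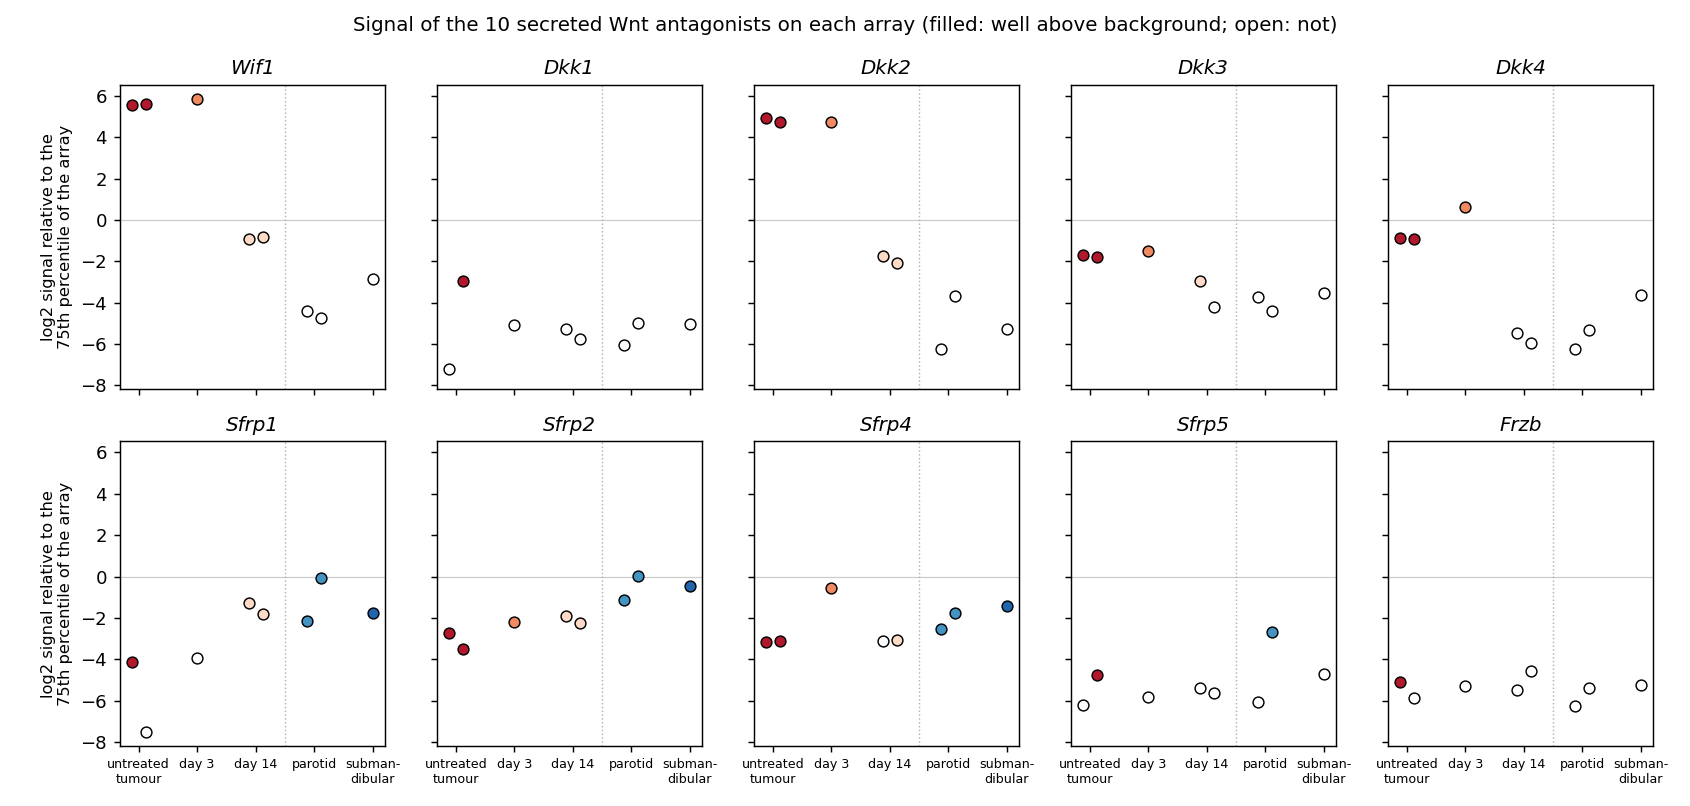
Log2 signal relative to the 75th percentile of the array (vertical axis) for each of the 10 antagonists, by group (horizontal axis). Each point is 1 array and filled points were well above background. Wif1 and Dkk2 lie between 4.73 and 5.86 in untreated and day 3 tumours and below 0 at day 14 and in both glands. For Dkk1 and Sfrp1 the brighter probe is drawn.

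Testing was possible for 7 of the 10 antagonists, those with a probe that was well above background throughout at least 1 group, within a fit over 16350 genes. Wif1, Dkk2, Dkk3 and Dkk4 entered the test only through tumour arrays and Sfrp1 through the glands and day 14, so counts over the tested genes do not describe all 10. Dkk1, Sfrp5 and Frzb were not tested and are described by array further on.

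Compared with parotid gland, 4 antagonists rose in untreated tumour (Wif1, Dkk2, Dkk3 and Dkk4), 2 fell (Sfrp1 and Sfrp2) and Sfrp4 did not pass the test (limma, Benjamini-Hochberg adjusted p under 0.05). Of all genes tested, 39.0% passed in this comparison, 18.7% higher and 20.3% lower in the tumour. Markers of other cells also fell in untreated tumour against parotid, with none rising, for all 12 acinar genes, 7 of 8 adipocyte, 6 of 7 T cell, 6 of 8 B and plasma cell, 5 of 8 basal and myoepithelial, 4 of 10 endothelial and 2 of 10 skeletal muscle genes. The remaining lists moved both ways. Of 12 duct epithelium genes 4 rose and 4 fell, and of 14 fibroblast and matrix genes 1 rose and 3 fell. Of 10 macrophage genes 1 rose and 2 fell, as did 1 and 2 of 5 nerve genes. Summed signals were 25.1 and 15.7 in untreated tumour against 60.2 and 230 in parotid for adipocyte genes, 0.30 and 0.29 against 76.6 and 1.56 for T cell genes, 7.75 and 10.5 against 119.8 and 72.8 for B and plasma cell genes, and 40.7 and 20.6 against 44.5 and 141.6 for basal and myoepithelial genes. The part of these cells in the antagonist differences was not tested. Against submandibular gland, 3 rose (Wif1, Dkk2 and Dkk4), 2 fell (Sfrp2 and Sfrp4), and Dkk3 and Sfrp1 did not pass, where 29.4% of all genes passed, 14.3% higher and 15.1% lower. There 6 of 8 basal and myoepithelial genes fell in untreated tumour (summed signal 311 in submandibular gland), as did 4 of 8 adipocyte, 3 of 8 B and plasma cell, 2 of 5 nerve, 2 of 10 endothelial and 1 of 7 T cell genes, with none rising, while 6 of 12 acinar genes fell and 2 rose. Of 12 duct epithelium genes 1 rose and 5 fell, of 14 fibroblast and matrix genes 1 rose and 4 fell, and of 10 macrophage genes 1 rose and 2 fell. The part of these cells was not tested there either. These comparisons share the untreated tumour arrays. Untreated tumours and the submandibular array lay on different slides, and with slide as a fixed block 2 antagonists passed against submandibular gland, Wif1 and Dkk2, beside 2262 of 16350 genes. The median difference over all genes was 0.02 against parotid and 0.05 against submandibular gland on the log2 scale.

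Wif1, which captures Wnt proteins in the extracellular space, was far brighter in untreated and day 3 tumours than elsewhere. Its probe lies at chr10:120503083-120503142 on the mm8 assembly of the file headers. Its log2 signal was 5.58 and 5.61 without treatment, 5.86 at day 3, -0.91 and -0.81 at day 14, -4.42 and -4.73 in parotid and -2.87 in submandibular gland. Tumours without treatment or at day 3 were high, day 14 was intermediate, and no gland array was well above background. In unscaled intensity this was 46130 and 47438 units in untreated tumours and 42454 at day 3, against 18.0 and 5.45 in parotid and 37.8 in submandibular gland. Wif1 was at least 578-fold higher in untreated tumour than in parotid (adjusted p = 3.75e-05). Under normexp background correction the log2 difference from parotid was 7.21, which is smaller than this bound. Against submandibular gland the fitted fold of Wif1 was 353, which is no minimum (adjusted p = 1.33e-04). The log2 difference there was 8.46 with an interval of 7.77 to 9.16, and 6.96 under normexp background correction. On the first slide alone, with 1 parotid array, Wif1 was at least 735.5-fold higher in untreated tumour than in parotid.

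Dkk2, which binds the Lrp co-receptors, was measured at chr3:132116699-132116758 (mm8). It had log2 signals of 4.92 and 4.73 in untreated tumours, 4.73 on the day 3 array, -1.72 and -2.10 at day 14, -6.24 and -3.65 in parotid and -5.25 in submandibular gland. Untreated and day 3 tumours were again high and day 14 intermediate, with all gland arrays below background and the 2 parotid arrays far apart. Dkk2 was at least 339.5-fold higher in untreated tumour than in parotid (adjusted p = 4.61e-04) and at least 219.5-fold higher than in submandibular gland (adjusted p = 0.00119). Under normexp background correction its log2 differences were 6.63 against parotid and 6.89 against submandibular gland, which are smaller than these bounds. Wif1 and Dkk2 passed in every alternative that gave them a value, 16 of 16 against parotid and 15 of 15 against submandibular gland.

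Dkk4, another ligand of the Lrp co-receptors, was measured at chr8:24092537-24092596 (mm8). Its log2 signals were -0.86 and -0.94 in untreated tumours, 0.65 on the day 3 array, -5.47 and -5.94 at day 14, -6.22 and -5.32 in parotid and -3.61 in submandibular gland. It was well above background on the untreated and day 3 tumour arrays and on no other array. Dkk4 was at least 6.40-fold higher in untreated tumour than in parotid (adjusted p = 8.25e-04) and at least 4.14-fold higher than in submandibular gland (adjusted p = 0.0170). Under normexp background correction the log2 differences were 1.74 and 1.07, smaller than these bounds, and the one from submandibular gland did not pass. The second call was lost without either untreated tumour array (adjusted p = 0.0866 and 0.0796) and with the deposited log2 values (adjusted p = 0.459). Over the alternatives the adjusted p against submandibular gland ranged from 0.00233 to 0.459.

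Dkk3, the divergent member of its family, was measured at chr7:111908495-111908554 (mm8). It had log2 signals of -1.68 and -1.79 in untreated tumours, -1.52 on the day 3 array, -2.94 and -4.20 at day 14, -3.72 and -4.40 in parotid and -3.52 in submandibular gland. The tumour arrays without treatment or at day 3 stood above all others, within a narrower range than for the other Dkk genes. Under normexp background correction the log2 difference from parotid was 0.62. The rise over parotid was 3.35-fold (adjusted p = 0.0178), with the first parotid array at its own dim signal, so it is no minimum. Without either untreated tumour array it did not pass (adjusted p = 0.0930 without the first and 0.0839 without the second), nor did it under normexp background correction (adjusted p = 0.488; range over the alternatives 0.00869 to 0.488). Dkk3 was below background in submandibular gland, where untreated tumour was at least 2.32-fold higher (adjusted p = 0.0894). The log2 difference there was 0.55 under normexp background correction, which is smaller than this bound.

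The Sfrp genes, whose products carry a Frizzled-like domain that binds Wnt proteins, followed other orders. Sfrp2, at chr3:83859869-83859928 (mm8), was the only antagonist well above background on all 8 arrays. Its log2 signals were -2.73 and -3.51 in untreated tumours, -2.18 on the day 3 array, -1.91 and -2.22 at day 14, -1.12 and 0.01 in parotid and -0.45 in submandibular gland. After scaling, all tumour arrays lay below all gland arrays. Before scaling, the day 3 array, at 161 units, lay above the second parotid array, at 146 units. Untreated tumours then had 145 and 85.3 units, against 176 on the first parotid array and 203 in submandibular gland. Sfrp2 fell in untreated tumour by 2.56 ± 0.50 on the log2 scale against parotid (SE; adjusted p = 0.00964) and by 2.67 ± 0.61 against submandibular gland (adjusted p = 0.0211). Without the second untreated tumour array neither call held (adjusted p = 0.0618 and 0.0880), and the call against submandibular gland was also lost without either day 14 array (adjusted p = 0.0582 and 0.0577). The adjusted p ranged over the alternatives from 0.00142 to 0.0618 against parotid and from 0.00281 to 0.126 against submandibular gland.

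Sfrp1 was read by its brighter probe at chr8:24913185-24913244 (mm8), since its other probe was well above background on no array. Log2 signals were -4.14 and -7.51 in untreated tumours, -3.94 on the day 3 array, -1.29 and -1.79 at day 14, -2.13 and -0.06 in parotid and -1.75 in submandibular gland. The untreated tumours were lowest and differed more from each other than any other pair, and only the first was well above background. It fell by 4.73 ± 1.18 on the log2 scale against parotid (SE; adjusted p = 0.0230). The difference was -3.04 without the second untreated tumour array (adjusted p = 0.0711) and -6.42 without the first. The call was also lost without either day 14 array, whose removal leaves the difference itself as it was (adjusted p = 0.0603 and 0.06), and it passed in 9 of 16 alternatives (adjusted p from 0.00817 to 0.107). Against submandibular gland the log2 difference was -4.08 with a 95% interval of -7.57 to -0.58 (adjusted p = 0.0804).

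Sfrp4, at chr13:19640084-19640143 (mm8), had log2 signals of -3.19 and -3.13 in untreated tumours, -0.56 on the day 3 array, -3.09 and -3.06 at day 14, -2.54 and -1.78 in parotid and -1.44 in submandibular gland. The day 3 array was the highest of the 8, and untreated and day 14 tumours were the lowest. The difference between untreated tumour and parotid was -0.997 with a 95% interval of -1.95 to -0.05 (adjusted p = 0.0885), and it passed without the first parotid array (-1.38, adjusted p = 0.0139). Against submandibular gland it fell by 1.72 ± 0.48 (SE; adjusted p = 0.0403), which passed in 8 of 15 alternatives. Without an untreated tumour or a day 14 array it was lost, with adjusted p between 0.0913 and 0.147, in a range of 0.0063 to 0.533 over the alternatives. Before scaling the order was the other way, with an intensity of 106 and 111 units in untreated tumours, against 65.9 and 42.4 in parotid and 102 in submandibular gland. Under all scalings tried the difference from parotid stayed below 0, and over the alternatives its adjusted p ranged from 0.0139 to 0.473.

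**Figure D2:**
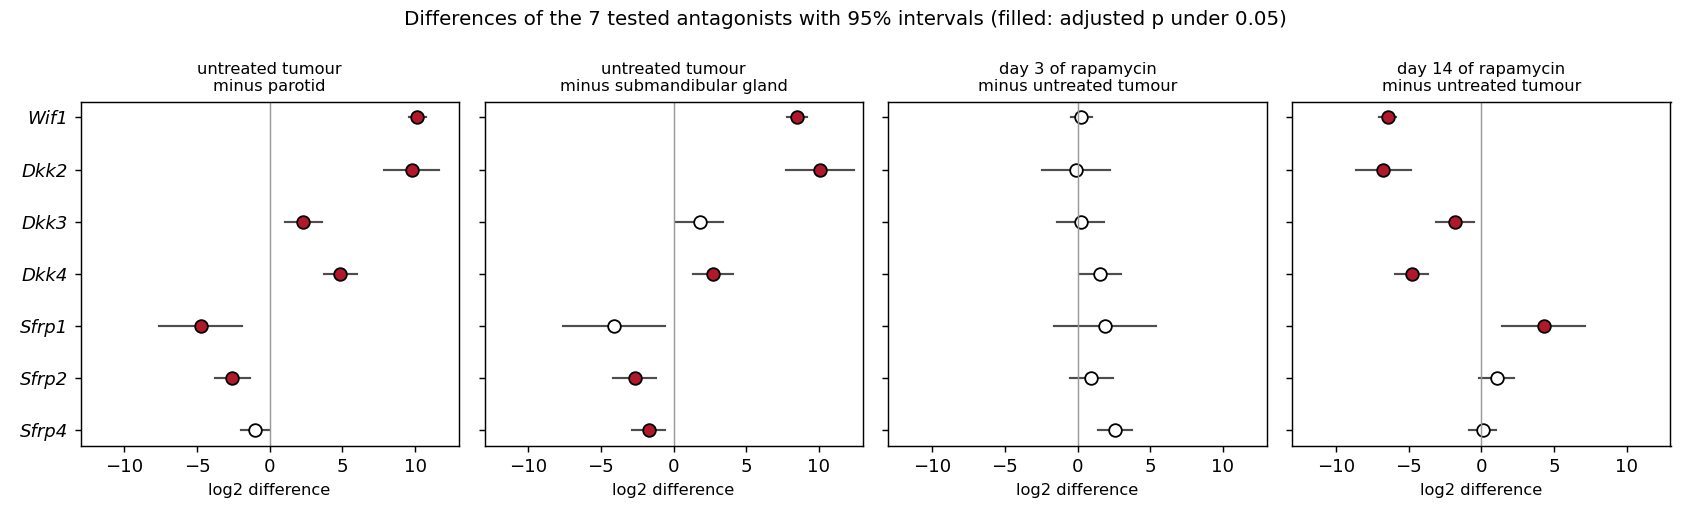
Log2 differences (horizontal axis) of the 7 tested antagonists with their 95% intervals in 4 comparisons. Filled points had an adjusted p under 0.05. Wif1 and Dkk2 lie near 0 at day 3 and at -6.45 and -6.74 at day 14 against untreated tumour. Where a gland or day 14 was below background on every array, the point is the fitted value and no bound.

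Dkk1, Sfrp5 and Frzb were well above background on few arrays and throughout no group. Dkk1, the founding member of its family, was well above background in the second untreated tumour only, with both probes, at 126 and 36.3 units of unscaled intensity. These were log2 signals of -2.94 and -4.74, beside -3.51 for Sfrp2 and -3.13 for Sfrp4 on that array. In the first untreated tumour the Dkk1 probes had 6.48 and 5.93 units, and on the remaining 6 arrays both together ranged from 3.70 to 22.7 units. Sfrp5 was well above background in the second untreated tumour (36.1 units) and the second parotid array (22.6 units). Frzb, also known as Sfrp3, was so in the first untreated tumour only, at 28.1 units against 3.41 to 18.3 units elsewhere. With no filter on dim probes, none of the 3 passed in any of the 8 comparisons.

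At day 3 of rapamycin no antagonist differed from untreated tumour by the test, 0 of 7, when 0.00612% of all genes passed (1 gene). Before adjustment, 2 of 7 (Dkk4 and Sfrp4) were under the threshold of 0.05, as were 8.76% of all genes. Wif1 differed from untreated tumour by 0.27 on the log2 scale, with a 95% interval of -0.43 to 0.97. For Dkk2 the difference was -0.10 with an interval of -2.41 to 2.22, and for Dkk3 it was 0.22 with an interval of -1.38 to 1.81. Dkk4 was 1.55 above untreated tumour (interval 0.15 to 2.96, adjusted p = 0.524), and Sfrp4 was 2.60 above it (interval 1.43 to 3.76, adjusted p = 0.181). The Sfrp4 difference passed without the first or the second parotid array (adjusted p = 0.0280 and 0.0291), which enter only the pooled spread, and its adjusted p ranged from 0.0280 to 0.998 over the alternatives. Sfrp2 was 0.95 above untreated tumour (interval -0.53 to 2.42), and Sfrp1 was below background at day 3, so no fold is given. No slide held both the day 3 and the untreated tumour arrays, and with slide as a fixed block 0 of 7 antagonists and 0 of all 16350 genes passed.

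At day 14, 4 antagonists fell against untreated tumour (Wif1, Dkk2, Dkk3 and Dkk4), Sfrp1 rose, and Sfrp2 and Sfrp4 did not pass. Of all genes, 47.7% passed in this comparison, 24.3% higher and 23.4% lower at day 14. Wif1 fell 87.6-fold, a log2 difference of -6.45 ± 0.24 (SE; adjusted p = 8.13e-05), and its day 14 signals of -0.91 and -0.81 did not overlap with those of any other group. Dkk2 fell 106.7-fold, a log2 difference of -6.74 ± 0.78 (adjusted p = 0.00129). Dkk4 was at least 5.92-fold lower at day 14 than in untreated tumour (adjusted p = 7.79e-04). Its log2 difference ranged from -5.30 to -1.49 over the alternatives, the smallest change being less than this bound. On the first slide alone, with 1 day 14 array, the log2 differences were -6.51 for Wif1 and -6.55 for Dkk2, and Dkk4, below background at day 14, was at least 4.84-fold lower. These 3 genes passed in 16 of 16 alternatives, and they were the only antagonists to pass with slide as a fixed block or under normexp background correction.

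Dkk3 differed by -1.83 ± 0.54 at day 14 (SE; adjusted p = 0.0321), with 1 of 2 day 14 arrays well above background. The call was lost without the first or the second untreated tumour array (adjusted p = 0.131 and 0.122) and without the second day 14 array (-1.20, adjusted p = 0.167), and the adjusted p ranged from 0.0123 to 0.637 over the alternatives. Sfrp1 rose at day 14 by 4.29 ± 1.18 on the log2 scale (adjusted p = 0.0261), with untreated tumour well above background on 1 of 2 arrays. Its unscaled intensity was 72.6 and 68.2 units at day 14 and 54.9 and 5.32 units in untreated tumour. The rise was 2.60 without the second untreated tumour array (adjusted p = 0.0883) and 5.98 without the first. It was also lost without the first or the second day 14 array (adjusted p = 0.137 and 0.103; range over the alternatives 0.00881 to 0.137). For Sfrp2 the difference was 1.05 with an interval of -0.15 to 2.26 (adjusted p = 0.127), and it passed without the first or the second parotid array (adjusted p = 0.0341 and 0.0361; range over the alternatives 0.0341 to 0.459). The unscaled intensity of Sfrp2 was 47.0 and 50.4 units at day 14 and 145 and 85.3 units in untreated tumour, the other order than after scaling. For Sfrp4 the difference was 0.08 with an interval of -0.87 to 1.03 (adjusted p = 0.879), with 1 of 2 day 14 arrays well above background.

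Between day 14 and day 3, 4 antagonists were lower at day 14 and none higher, where 22.7% of all genes passed, 10.9% higher and 11.8% lower. The log2 difference was -6.72 ± 0.29 for Wif1 (SE; adjusted p = 4.23e-04), -6.64 ± 0.96 for Dkk2 (adjusted p = 0.00680) and -2.52 ± 0.48 for Sfrp4 (adjusted p = 0.0161). Dkk4 was at least 17.4-fold lower at day 14 (adjusted p = 0.00211). On the second slide alone, with 1 array each, the log2 differences were -6.67 for Wif1, -6.83 for Dkk2 and -2.50 for Sfrp4, and Dkk4, below background at day 14, was at least 21.3-fold lower. Over the alternatives the log2 difference of Dkk4 ranged from -6.81 to -2.94, the smallest change being less than both bounds. Without the first or the second day 14 array the calls of Dkk2 (adjusted p = 0.0542 and 0.0597) and Sfrp4 (adjusted p = 0.0942 and 0.0884) were lost, and these are the highest values over the alternatives for Dkk2, whereas Sfrp4 reached 0.464 under normexp.

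Against the glands, Wif1 was the only antagonist that passed at day 14. Wif1 was at least 6.60-fold higher at day 14 than in parotid (adjusted p = 0.00219). Over the alternatives its log2 difference from parotid ranged from 1.30 to 3.87, the smallest being less than this bound. In that comparison 11.3% of all genes passed (6.25% higher and 5.06% lower). Against submandibular gland the fitted fold of Wif1 was 4.03, which is no minimum (adjusted p = 0.0163). The log2 difference there was 2.01 with an interval of 1.32 to 2.71, and 1.05 under normexp background correction. Of all genes, 8.93% passed against submandibular gland (5.65% higher and 3.28% lower). Both calls were lost without the first or the second day 14 array, with adjusted p of 0.07 and 0.0783 against parotid and 0.139 and 0.126 against submandibular gland. The second was also lost without the first or the second untreated tumour array (adjusted p = 0.0582 and 0.0584). Over the alternatives the adjusted p of Wif1 ranged from 1.98e-04 to 0.0783 against parotid and from 3.53e-07 to 0.18 against submandibular gland. Dkk2, well above background on both day 14 arrays and no gland array, was at least 3.18-fold higher than in parotid (adjusted p = 0.0566) and at least 2.06-fold higher than in submandibular gland (adjusted p = 0.0827). Its smallest log2 differences over the alternatives were 0.80 from parotid, less than that bound, and 1.06 from submandibular gland. Without either parotid array both Dkk2 differences passed, with adjusted p from 3.87e-04 to 0.00576, and the highest values over the alternatives were 0.286 and 0.307. The other 5 had adjusted p from 0.1 to 0.958 against parotid and from 0.0767 to 0.973 against submandibular gland. Between submandibular gland and parotid, Wif1 passed (adjusted p = 0.0432), where 2.35% of all genes did (1.36% higher and 0.985% lower), but it was below background in both, so no fold is given.

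Markers of other cell types moved with the day 14 samples. All 12 acinar secretory genes were higher at day 14 than in untreated tumour, with summed signals of 6376 and 6288 against 75 and 133 in untreated tumour. All 10 skeletal muscle genes were higher, with summed signals of 1366 and 1398 at day 14 against 1.28 and 1.16 in untreated tumour, where 6 of them (Ckm, Myh2, Myh4, Myh1, Actn3 and Ttn) were below background. All 8 tested adipocyte genes were higher at day 14, with sums of 296 and 265 against 25.1 and 15.7. Of 8 basal and myoepithelial genes tested, 6 were higher and none lower (233 and 239 against 40.7 and 20.6). In the glands the skeletal muscle sums were 2.59 and 135 in parotid and 1.7 in submandibular gland. The adipocyte sums there were 60.2 and 230 in parotid and 36.3 in submandibular gland. The part of these cells in the day 14 differences from the glands was not tested.

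For duct epithelium, 5 of 12 markers were higher and 5 lower at day 14, with sums of 418 and 503 against 554 and 759 in untreated tumour. Of 14 fibroblast and matrix genes, 5 were higher and 2 lower, with sums of 123 and 120 against 175 and 73.4. T cell genes were higher at day 14 in 6 of 7 (14.8 and 16.9 against 0.30 and 0.29), B and plasma cell genes in 7 of 8 (79.8 and 86.4 against 7.75 and 10.5), endothelial genes in 4 of 10 (33.8 and 27.8 against 8.22 and 4.44) and nerve genes in 4 of 5 (60.9 and 71.6 against 31.5 and 32.4), with none lower. Macrophage genes were higher in 2 and lower in 6 of 10 (24.99 and 27.7 against 50.3 and 69.8). The part of these cells in the antagonist differences was not tested. At day 3 no gene of the 11 cell type lists passed, where 1 of all 16350 genes did. The sums were 104 for acinar, 1.56 for skeletal muscle, 97.7 for adipocyte, 100.1 for basal and myoepithelial and 753 for duct epithelium genes. The fitted median log2 difference from untreated tumour was 6.49 for adipocyte genes, or 4.63 with dim genes at their bound. It was 1.83 for basal and myoepithelial, 0.93 for acinar and 0.35 for duct epithelium genes, and as fitted it was negative for macrophage genes only (-0.16). With dim genes at their bound it was also negative for T cell genes (-1.62, from 1 of 7 genes) and B and plasma cell genes (-0.32, from 3 of 8 genes).

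**Figure D3:**
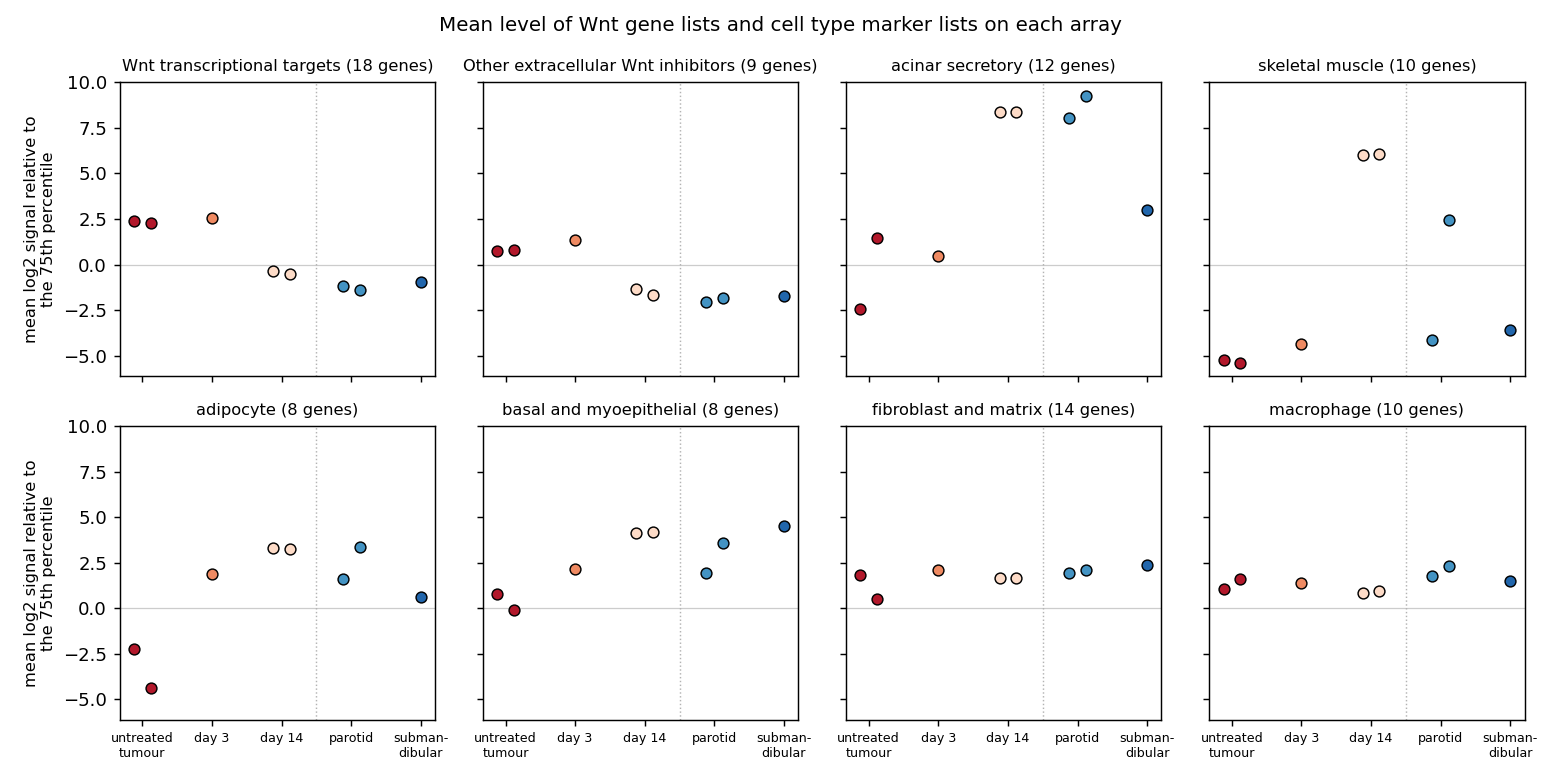
Mean log2 signal relative to the 75th percentile (vertical axis) of 2 Wnt gene lists and 6 cell type marker lists, by group (horizontal axis). Each point is 1 array, and the 2 Wnt lists share Notum, Rnf43 and Znrf3. The Wnt lists are high in untreated and day 3 tumours and low at day 14 and in the glands. The acinar, skeletal muscle, adipocyte and basal and myoepithelial lists are high at day 14. The acinar list is also high in parotid, the adipocyte list on the second parotid array and the basal and myoepithelial list in submandibular gland.

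The wider pathway was described by lists chosen by role, which overlap. Notum, Rnf43 and Znrf3 stand among both the other inhibitors and the Wnt targets. Lgr5 stands among both the R-spondin receptors and the Wnt targets, so counts of these lists are not separate. Their counts stand beside 39.0% of all genes passing for untreated tumour against parotid, 29.4% against submandibular gland and 47.7% at day 14 against untreated tumour. List genes that were dim in the glands entered the test only through the tumours, so counts over the tested genes do not describe whole lists. Among the partners of Dkk proteins, Lrp4, Lrp5, Lrp6, Kremen1 and Kremen2, 4 were tested, and 3 rose in untreated tumour against parotid and 2 against submandibular gland, none fell, and 2 fell at day 14. Kremen1, a Dkk receptor that removes Lrp6 from the cell surface, was 4.24 ± 0.38 above parotid in untreated tumour (SE; adjusted p = 6.13e-04), at least 15.5-fold higher than in submandibular gland (adjusted p = 5.92e-04), and differed by -1.88 ± 0.38 at day 14 from untreated tumour (adjusted p = 0.00903). Lrp4, a receptor of the same family as Lrp5 and Lrp6, was 3.15 ± 0.33 above parotid (adjusted p = 0.00110) and differed by -2.50 ± 0.33 at day 14 (adjusted p = 0.00208). Both genes were well above background on 1 of 2 parotid arrays.

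Other extracellular or membrane inhibitors were tested for 9 of 11 genes, of which 6 rose and 1 fell in untreated tumour against each gland, and 6 fell and 1 rose at day 14 against untreated tumour. The list median was 3.56 against parotid and -2.78 at day 14, beside 0.02 for all genes in each. With dim genes at their bound, over 8 and 9 genes, it was 3.44 and -2.78. Apcdd1, a membrane protein that binds Wnt and Lrp5, was 123-fold higher in untreated tumour than in parotid (adjusted p = 1.40e-04) and 52.0-fold lower at day 14 than in untreated tumour (adjusted p = 2.34e-04). Against submandibular gland Apcdd1 was 78.2-fold higher in untreated tumour (adjusted p = 4.55e-04). Notum, a secreted enzyme that removes the lipid of Wnt proteins, was at least 43.8-fold higher in untreated tumour than in parotid (adjusted p = 6.38e-04) and at least 40.6-fold lower at day 14 (adjusted p = 5.70e-04).

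Among the 19 Wnt ligands, which Wif1 and the Sfrp proteins bind, 11 were tested, and 5 rose and 2 fell in untreated tumour against parotid, 4 rose and 1 fell against submandibular gland, and 5 fell and 1 rose at day 14 against untreated tumour. Wnt6 was 48.2-fold higher in untreated tumour than in parotid (adjusted p = 4.69e-04), and Wnt16 was at least 9.54-fold higher (adjusted p = 7.36e-04) and at least 8.84-fold lower at day 14 than in untreated tumour (adjusted p = 8.04e-04). Wnt4 ran the other way, with a log2 difference of -8.44 ± 0.49 between untreated tumour and submandibular gland (SE; adjusted p = 3.31e-04) and of 7.57 ± 0.40 between day 14 and untreated tumour (adjusted p = 1.79e-04). All 10 Frizzled receptors were tested, and 4 rose and 3 fell against parotid, 2 rose and 3 fell against submandibular gland, and 3 rose and 3 fell at day 14. Fzd10 was 3.39 ± 0.61 above parotid on the log2 scale (adjusted p = 0.00715), whereas Fzd9 differed by -3.83 ± 0.34 from parotid in untreated tumour (adjusted p = 5.97e-04) and by 4.11 ± 0.34 at day 14 from untreated tumour (adjusted p = 4.91e-04). Fzd10 differed by -2.67 ± 0.61 at day 14 from untreated tumour (adjusted p = 0.0135), and Fzd8 by -2.85 ± 0.79 between untreated tumour and submandibular gland (adjusted p = 0.0391).

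R-spondins and their Lgr receptors, which strengthen Wnt signalling, had 4 of 7 genes tested, with 2 higher and 1 lower in untreated tumour than in each gland, and 2 lower and 1 higher at day 14 than in untreated tumour. Lgr5, a stem cell marker in several epithelia, was at least 33.2-fold higher in untreated tumour than in parotid (adjusted p = 2.56e-04) and at least 30.7-fold lower at day 14 (adjusted p = 3.02e-04). It was at least 21.5-fold higher in untreated tumour than in submandibular gland (adjusted p = 8.46e-04). Lgr6, a related receptor, was at least 19.7-fold higher in untreated tumour than in parotid (adjusted p = 6.00e-04) and at least 18.2-fold lower at day 14 (adjusted p = 7.85e-04). Of 20 Wnt target genes 18 were tested, and 12 rose and 1 fell against parotid, 12 rose and none fell against submandibular gland, 0 passed at day 3, and 12 fell and 1 rose at day 14. Their median log2 difference was 3.67 against parotid, 3.78 against submandibular gland, 0.22 at day 3 and -2.46 at day 14. Of the 18, 4 were below background in parotid, 7 in submandibular gland and 3 at day 14, and with such genes at their bound the medians were 2.76, 3.77 and -1.96. Sp5, a transcription factor and Wnt target, was at least 326-fold higher in untreated tumour than in parotid (adjusted p = 8.98e-05) and differed by -6.92 ± 0.40 at day 14 from untreated tumour (adjusted p = 2.13e-04). Against submandibular gland Sp5 was at least 210.6-fold higher in untreated tumour (adjusted p = 2.71e-04). Nkd1, an intracellular feedback inhibitor of the pathway, was 265-fold higher in untreated tumour than in parotid (adjusted p = 3.75e-05). The comparisons with parotid and of day 14 share the untreated tumour arrays, so opposite signs in them are not independent.

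The antagonists fell into patterns across the 8 arrays, given here as descriptions that rest on 5 groups. Wif1 and Dkk2 had a Pearson correlation of 0.976, Wif1 and Dkk3 of 0.931, and Wif1 and Dkk4 of 0.898. Sfrp1 and Sfrp2 correlated at 0.837 with each other and at -0.828 and -0.851 with Wif1, and Sfrp4 at -0.06 with Wif1. Among 13343 genes compared, the closest to Wif1 were Spock2 (0.9955), Smim3 (0.9936) and Sp5 (0.9932). The closest to Dkk2 were Padi3 (0.9952), Sp5 (0.9941) and Traf4 (0.9922), and to Dkk4 Ush1c (0.9943), Akr1b8 (0.9943) and Wnt9b (0.9895). Ankle1 (0.9876), Rlf (0.9858) and Asap2 (0.9804) were closest to Dkk3, and Obsl1 (0.9925), Igfbp6 (0.9823) and Itga1 (0.9808) to Sfrp1.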

How the data were processed

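Intensity was measured on 8 one-colour Agilent arrays (design 014868). Per the labels' protocols, RNA extraction used Trizol and 300 ng went into labelling. Per the file headers, the authors' scans were quantified by Feature Extraction 10.7.3.1 into a background-subtracted processed intensity per spot, not scaled between arrays. The deposited table of log2 values (medians 5.52 to 5.57, maximum 18.97 on every array, correlation of 0.971 to 0.980 with the own array) has an unstated normalization and was an alternative only. Probe positions are on mm8, per the file headers, and promoters on GRCm38.p6. These builds were not converted into each other, and no exon annotation of mm8 was used here.

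Log2 processed intensities, less the 75th percentile of the array, entered a limma model (version 3.58.1, R 4.3.3) with 5 group means over all 8 arrays, an intensity trend and Benjamini-Hochberg adjustment over 16350 genes (two-sided, threshold 0.05, 3 residual and 3.28 prior degrees of freedom). The spread of the single arrays was taken to equal that of the groups with replicates. Kept probes were well above background throughout at least 1 group, spots flagged as non-uniform or outlying were dropped, and the brightest probe stood for a gene. No spot was saturated. Names came from RefSeq by symbol (25333 probes), accession (4772) or synonym (2918), otherwise from the files (8151). Where a gene was below background on all arrays of a group, the fold is a bound, the mean of the bright group against, per array, the higher of the lowest signal well above background and the signal of the dim probe. Such a bound allows for the detection limit alone, not for the spread between arrays or another background correction. For Wif1 in submandibular gland the signal of the dim probe was the higher, so the fold is the fitted value and no bound. On the first parotid array this held for Dkk3 too, so its fold against parotid is no minimum either. The number of arrays limits the precision.

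Named pathway genes were chosen among each list's genes past the threshold by the size of the change, up to 2 for untreated tumour against parotid and for day 14 against untreated tumour and 1 for untreated tumour against submandibular gland and for day 3 against untreated tumour. The 3 genes most correlated with an antagonist are named where it passed in both of the first comparisons, and cell type lists are given as counts and summed signals. The antagonists and lists were chosen with earlier results of these data known. The fit was checked on simulated data. Alternatives were normexp background correction (offset 50), quantile normalization, the deposited values, other probe filters, the mean of probes, no trend, slide as a block, slide 1 alone, only the groups compared, and leaving out each replicate.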

Additional observations from a re-analysis of the deposited data

Results flagged for a closer look

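The day 14 and day 3 tumours had different effects relative to the same untreated tumours, by the fit of day 14 minus day 3. The log2 differences between day 14 and day 3 were -6.72 for Wif1, -6.64 for Dkk2, -6.35 for Dkk4 and -2.52 for Sfrp4. Day 3 is 1 array, and Dkk4 was below background on both day 14 arrays, so its fitted value is no bound.

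Among the genes outside the tests, Dkk1 had a processed intensity of 126.2 in untreated tumour replicate 2, where both of its probes were well above background, while no gland array detected it. Frzb had 28.1 in untreated tumour replicate 1 and was likewise detected on no gland array. Each signal was seen on 1 of 2 untreated tumour arrays.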

How the results depend on the processing

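No difference that passed the test changed its sign under any of the 17 alternatives. Over all values of single antagonists, 769 kept their side of the threshold, 41 passed only under the alternative and 59 no longer passed. With probes well above background on all arrays, only Sfrp2 was tested, which gave 1 antagonist called for untreated tumour against parotid, 1 against submandibular gland, and 0 for day 14 against untreated tumour, day 3, parotid or submandibular gland and for submandibular gland against parotid. Under normexp the counts were 2 for untreated tumour against submandibular gland, 3 for day 14 against untreated tumour, 0 for day 14 against submandibular gland and 0 for submandibular gland against parotid. With slide as a fixed block they were 2, 3 and 0 for untreated tumour against submandibular gland, day 14 against untreated tumour and submandibular gland against parotid. The deposited log2 values gave 3 for untreated tumour against submandibular gland. Quantile normalization gave 2 for day 14 against submandibular gland and 2 for submandibular gland against parotid. Day 14 against parotid had 2 with no filter and 2 on slide 1 alone. With only the groups compared, day 14 against submandibular gland had 5 and submandibular gland against parotid 0, which was also 0 with no trend.

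Leaving out each replicate in turn gave 3 to 7 antagonists for untreated tumour against parotid, 2 to 7 against submandibular gland, 0 to 1 for day 3 against untreated tumour, 3 to 6 for day 14 against untreated tumour, 2 to 5 against day 3, 0 to 4 against parotid, 0 to 5 against submandibular gland and 0 to 2 for submandibular gland against parotid. Over all genes the alternatives gave 3029 to 15333 calls for untreated tumour against parotid (6382 in the analysis as reported), 2262 to 13377 against submandibular gland (4812), 0 to 288 for day 3 against untreated tumour (1), 3730 to 16615 for day 14 against untreated tumour (7803) and 767 to 8700 against day 3 (3719). Other scalings moved the median difference of all genes by -0.15 to 0.24. No paired analysis was possible because the groups share only the replicate number 2 in the labels. Signals not called well above background have no measured level. Among them are most signals of Dkk1, Sfrp5 and Frzb and the gland values of Wif1 and the Dkk genes. Folds against them are limited to bounds or, for Wif1 against submandibular gland, to fitted values. For Dkk3 against parotid the fold is no minimum.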
